A study of Homo sapiens with 12 samples.

Results

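Interferon-stimulated genes are the genes that a cell switches on when an interferon reaches it, and 49 of them were followed here across 2 human acute myeloid leukaemia cell lines in which the chromatin remodeler CHD4 was depleted. The genes were chosen by name, with earlier results of these data known. Each was represented by 1 probe set annotated to that gene alone, the one with the highest mean over all 12 arrays. Such a probe set was found for 47 of the 49, among 11963 genes measured this way. STAT2 and IFI30 were not analysed here. The values are log2 values made with RMA, which corrects background, sets the arrays to 1 distribution and reduces the probes of a probe set to 1 value.

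The study had 4 groups of 3 arrays each: MV4-11 cells with an shRNA against CHD4, MV4-11 cells with a scrambled shRNA, U937 cells with the CHD4 shRNA and U937 cells with the scrambled shRNA. MV4-11 is a myelomonocytic line whose MLL gene is fused and whose FLT3 receptor is constitutively active, and U937 is a monocytic line. In all 4 groups the hairpin came from a lentiviral pRRL.H1 construct that also expresses green fluorescent protein, and all cells were grown in RPMI with serum and antibiotics, so the scrambled cells were transduced cells too. The series description calls the triplicates biological. It asks how the loss of CHD4 alters the transcriptome of these lines. The labels do not give the number of hairpin sequences, the time after transduction, or whether the cells were sorted or clonal. The target is written CDH4 in the sample labels and CHD4 in the series description, and CHD4 is used here because its own probe set fell.

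Interferons bind receptors at the cell surface that carry the kinases JAK1 and TYK2 or JAK1 and JAK2. The kinases activate STAT proteins, and with type I interferon the STAT proteins join IRF9 into a complex, ISGF3, that binds the interferon-stimulated response element (ISRE) in the promoters of these genes. Interferon gamma acts instead through a STAT dimer on the gamma-activated site (GAS). The products include sensors of viral RNA and DNA, enzymes that block translation or degrade RNA, membrane proteins that stop virus entry or release, and transcription factors that carry the response on. In myeloid cells the same genes are known to respond to cytosolic nucleic acids through adaptors that switch on interferon genes. CHD4 is the motor subunit of NuRD, a complex that slides nucleosomes and removes acetyl groups from histones, and that is known mainly as a repressor of transcription.

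The hairpin had its labelled effect on the CHD4 probe set in both lines. CHD4 had log2 values of 8.79, 8.85 and 8.39 in MV4-11 CHD4 shRNA cells, against 10.65, 10.69 and 10.68 in MV4-11 scrambled cells, a change of -2.00 (SE 0.14, limma adjusted p = 1.35e-05) that left 25.1% of the scrambled signal. In U937 it had 8.23, 8.13 and 8.45 with the CHD4 shRNA, against 10.31, 10.38 and 10.71 with the scrambled shRNA, a change of -2.20 (SE 0.14, limma adjusted p = 8.78e-06). The 12 measured myeloid markers of 13 listed averaged 8.35 to 8.70 on every array, but single markers moved. In MV4-11, 1 rose and 1 fell (8.33% each, against 4.73% and 4.69% of all genes). In U937, 1 fell (8.33%, against 3.69%) and none rose. The granule protein gene MPO averaged 5.78 and 5.59 in MV4-11 CHD4 shRNA and scrambled cells, and 5.25 and 5.20 in U937. MPO, CD14, FCGR1A, CSF1R and CSF3R passed in neither line, so the list does not move as a set. ITGAM, an integrin of mature myeloid cells, rose in MV4-11 (1.41, limma adjusted p = 0.00205) and had a change of 0.66 in U937 (0.0843). ELANE, the neutrophil elastase of early granulocytic cells, fell in both lines (-0.69 and -0.82, limma adjusted p = 0.0257 and 0.0149). AZU1, another granule protein gene, had changes of -0.83 and -0.72 that did not pass, and the homeobox gene MEIS1 rose in U937 (0.69, limma adjusted p = 0.014). The 8 stromal and epithelial markers averaged 5.19 to 5.36. FLT3 was 3.35 log2 higher in MV4-11 than in U937 scrambled cells. Of the markers of other blood cells, the T-cell gene CD2 rose in MV4-11 (1.77) and in U937 (1.40), CD79B rose in both (1.34 and 0.60), PAX5 fell by 0.90 in U937, and none of the 5 measured plasmacytoid dendritic cell markers passed the threshold. The mean of the 8 T and NK cell markers ran from 6.42 to 6.51 and from 6.28 to 6.31 in MV4-11 CHD4 shRNA and scrambled cells, and from 6.44 to 6.55 and from 6.22 to 6.42 in U937 CHD4 shRNA and scrambled cells. That of the 5 measured B-cell markers ran from 6.57 to 6.79 and from 6.51 to 6.59 in MV4-11, and from 6.55 to 6.72 and from 6.59 to 6.70 in U937, in the same order. CD2 was the only T and NK cell marker that passed in either line. In MV4-11, 6 of the 8 had changes below 0 (median -0.06), as did 4 of the 5 B-cell markers (median -0.11). In U937 both medians were 0.04. The part of these genes in the results that follow was not tested. These are bulk samples, in which more cells of one state and more RNA per cell cannot be told apart.

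One array stood apart in the interferon-stimulated genes, and it stood apart over all genes too. Each member's value was set against the mean of its line's scrambled arrays. The median member then lay 0.26, 0.84 and 0.23 log2 higher on MV4-11 CHD4 shRNA replicates 1, 2 and 3, while the median over all genes lay between -0.04 and -0.01 on these arrays. On replicate 2, 21 of 47 members were more than 1 log2 higher, against 8 on replicate 1 and 4 on replicate 3. Over all genes 2.69% were on replicate 2, against 1.4% on replicate 1 and 0.677% on replicate 3. Replicate 2 also had the most genes more than 1 log2 lower (1.55%, against 0.719% and 0.309%), so its deviation was not confined to the members. Replicate 2 was the highest of its 3 arrays for 36 of the 47 members (76.6%, against 35.2% of all genes). In U937 CHD4 shRNA cells the median member lay 0.04, 0.08 and 0.21 higher on replicates 1, 2 and 3, and replicate 3 was the highest for 33 of the 47 members (70.2%, against 37.7% of all genes). Without MV4-11 replicate 2 the MV4-11 change moved by over 1.5 times, or took the other sign, in 30 of the 47 members (4 of the 14 past the threshold described below and 26 of the other 33). Without U937 replicate 3 the U937 change did so in 19 members, none of them among the 7 past the threshold. The same count was not made over all genes, so these counts do not set the members apart. A change near 0 passes such a ratio readily, as HERC5 did in MV4-11 (-0.02 with all arrays and 0.09 without replicate 2). The values without these arrays are given for the members whose array values are described. The heat map of all members shows this, with a column for each array.

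**Figure D1:**
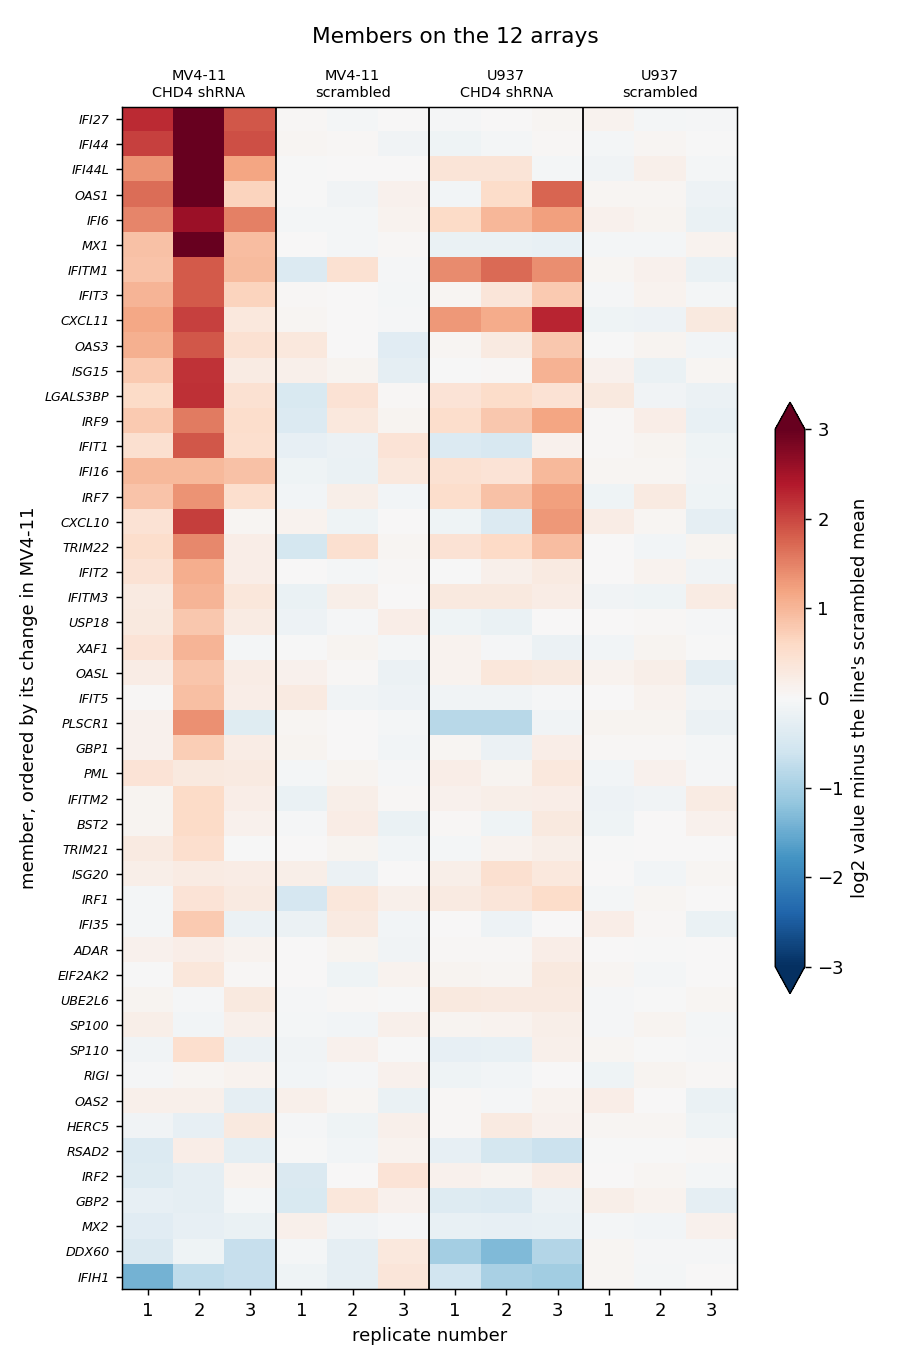
Log2 value of each of the 47 measured members on each of the 12 arrays, minus the mean of the 3 scrambled arrays of the same line (colour, saturating at 3 log2 units), with the members ordered by their change in MV4-11. The reds run deepest on MV4-11 CHD4 shRNA replicate 2, where 21 members lie more than 1 log2 above the scrambled mean (2.69% of all genes do). The U937 CHD4 shRNA columns are paler, with 8 such members on replicate 3 (1.19% of all genes).

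The promoters show what most of these genes share in sequence. RefSeq windows that run from 250 bases before to 50 bases after 1 start of each gene were at hand for 36 of the 47 measured members (build GRCh38.p14). In IFI27, DDX60, IFI16, ISG20 and XAF1 this start lies inside the gene's RefSeq span and not at its outer end. All positions below are counted from the start that the window uses. The core of the ISRE, GAAANNGAAA, was searched on both strands, and it was found in 23 of the 36 windows (63.9%), against 2.97% of the 9563 windows of genes measured here and 3.65% of all 27305 RefSeq windows. The GAS letters TTCNNNGAA, which read the same on both strands, were found in 10 of the 36 member windows (27.8%), against 6.64% of the windows of measured genes and 7.88% of all windows. A match is a description of the letters and not a shown binding site.

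The 170 bases before the start are printed for the 5 members with the largest rises in MV4-11 whose window held an ISRE core before the start, and for IFIH1 and DDX60, the members that fell. These last genes were chosen for printing after their values were seen. Each stretch is read 5′ to 3′ on the gene's strand, with the ISRE cores in capitals. The stretches lie at chr14:94110566-94110735, plus strand (IFI27), chr1:78649619-78649788, plus strand (IFI44), chr1:78620278-78620447, plus strand (IFI44L), chr1:27672193-27672362, minus strand (IFI6), chr11:313870-314039, plus strand (IFITM1), chr2:162318685-162318854, minus strand (IFIH1) and chr4:168318753-168318922, minus strand (DDX60).
IFI27: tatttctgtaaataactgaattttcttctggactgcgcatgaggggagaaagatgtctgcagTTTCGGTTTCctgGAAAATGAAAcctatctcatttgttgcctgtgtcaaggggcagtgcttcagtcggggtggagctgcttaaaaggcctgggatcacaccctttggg
IFI44: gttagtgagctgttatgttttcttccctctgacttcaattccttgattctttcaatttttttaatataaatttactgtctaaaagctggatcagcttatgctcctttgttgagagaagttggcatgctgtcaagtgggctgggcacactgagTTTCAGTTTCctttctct
IFI44L: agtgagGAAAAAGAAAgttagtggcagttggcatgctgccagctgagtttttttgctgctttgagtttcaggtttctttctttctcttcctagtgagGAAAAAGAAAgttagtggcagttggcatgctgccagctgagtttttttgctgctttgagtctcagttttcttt
IFI6: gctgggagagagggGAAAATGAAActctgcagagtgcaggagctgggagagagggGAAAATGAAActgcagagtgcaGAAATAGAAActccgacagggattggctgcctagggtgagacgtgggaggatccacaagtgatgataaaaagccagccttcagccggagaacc
IFITM1: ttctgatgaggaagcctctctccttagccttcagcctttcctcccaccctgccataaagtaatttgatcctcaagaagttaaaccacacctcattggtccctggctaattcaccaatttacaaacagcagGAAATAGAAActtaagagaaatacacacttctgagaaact
IFIH1: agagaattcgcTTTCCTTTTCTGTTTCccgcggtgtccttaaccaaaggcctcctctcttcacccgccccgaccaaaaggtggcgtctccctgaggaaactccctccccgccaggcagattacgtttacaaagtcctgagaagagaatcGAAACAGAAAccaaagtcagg
DDX60: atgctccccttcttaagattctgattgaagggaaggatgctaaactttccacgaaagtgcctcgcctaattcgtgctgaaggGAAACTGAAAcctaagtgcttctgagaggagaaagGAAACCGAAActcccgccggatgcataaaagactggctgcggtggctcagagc

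IFI6 held 3 cores, which begin 156, 115 and 93 bases before the start, and an exact repeat of 26 bases carries the first and the second. IFI44L held 2 cores, at 164 and 73 bases before the start, inside an exact repeat of 66 bases. IFI27 held 2 cores, at 108 and 95 bases before the start, with a GAS match that begins 101 bases before it and overlaps both. IFI44 held 1 core, 18 bases before the start. IFIH1 held 3 cores, 2 of which overlap, and DDX60 held 2, so the cores were also present in the members that fell. In MV4-11, 8 of the 11 members that rose and had a window held a core, the 1 that fell held one, and so did 14 of the 24 that did not pass the threshold. In U937 the counts were 2 of the 4 that rose, both that fell, and 19 of the 30 that did not pass. Cores were thus found among members that rose, that fell and that did not pass.

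**Figure D2:**
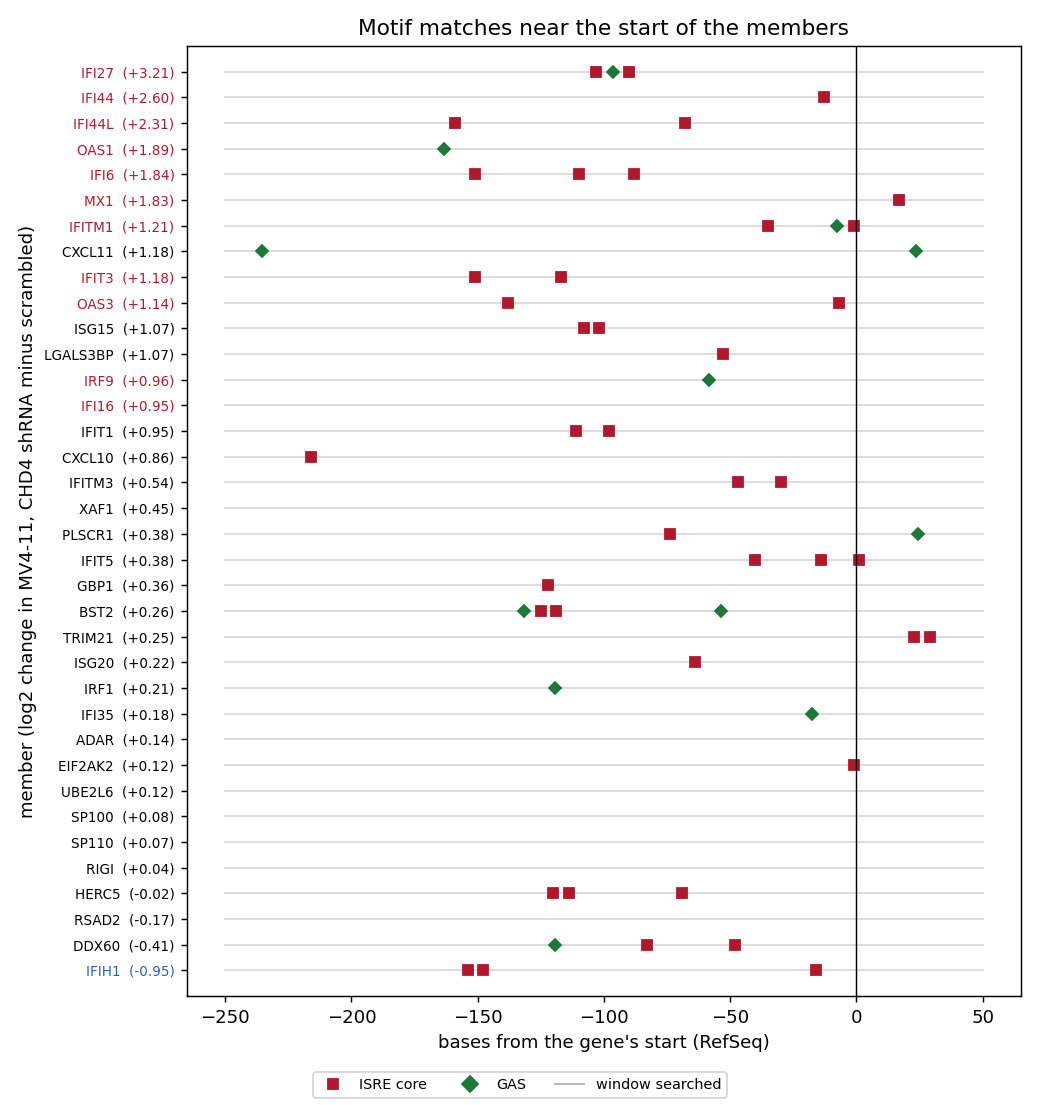
Matches to the ISRE core (red squares) and GAS (green diamonds), drawn at their centres, in the window from 250 bases before to 50 bases after the start used for the 36 measured members that have a RefSeq window (x axis, bases from that start). Rows are ordered by the MV4-11 change given beside each name, red names rose, the blue name fell and black names did not pass the threshold. Cores appear from the top of the order to the bottom, where IFIH1 has 3.

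In MV4-11 cells, CHD4 shRNA was accompanied by higher levels of a subset of the interferon-stimulated genes. Of the 47 members, 13 rose (27.7%), 1 fell and 33 did not pass the threshold of an adjusted p under 0.05 in limma, where 4.73% of all genes rose and 4.69% fell. The list was chosen with earlier results of these data known, so these shares describe it and do not test it. The rises ran from 0.33 log2 for PML to 3.21 for IFI27. The median change over the 47 members was 0.38 log2, against -0.03 over all genes, and 40 members were above 0 and 7 below. The arrays of 24 members all lay above the scrambled arrays and those of 2 all lay below, where 11.5% and 14.1% of all genes did so. In U937, 5 members rose (10.6%, where 2.67% of all genes rose), 2 fell (where 3.69% of all genes fell) and 40 did not pass. The median was 0.14 log2, against 0.00 over all genes. In U937 the arrays of 13 members all lay above and those of 5 all below the scrambled arrays, where 12.2% and 14.6% of all genes did.

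The number of MV4-11 calls depended on single arrays. Without MV4-11 CHD4 shRNA replicate 2 there were 8 rises and 1 fall, where 2.75% of all genes rose and 5.32% passed in either direction, the median was 0.20 and all 9 calls were among the 14. IRF7 (0.69), IRF9 (0.66), OAS1 (1.17), OAS3 (0.77) and PML (0.35) no longer passed, with limma adjusted p between 0.0609 and 0.124. IFI6 (1.48), IFIT3 (0.84), IFITM1 (0.90), IFI16 (0.94) and IFIH1 (-1.05) still did. Leaving out scrambled replicate 1, 2 or 3 gave 8, 9 or 6 calls among the members, where 6.38%, 5.41% or 5.01% of all genes passed, against 9.42% with all arrays. Leaving out CHD4 shRNA replicate 1 or 3 gave 8 or 24, where 3.53% or 16.4% of all genes passed, so calls over all genes were fewer or more where those of the members were. IFI6, IFI16, IFI27, IFI44, IFIT3 and IFITM1 passed in each of the 12 fits that left out 1 array. The replicate numbers paired the MV4-11 arrays, and with the replicate number as a block in MV4-11 alone 16 members rose and 1 fell, where 8.17% and 7.72% of all genes did. Of these 17, 12 were among the 14, with ISG15, CXCL11, IFITM3, LGALS3BP and TRIM22 gained and MX1 and PML lost. With blocks in both lines in 1 fit, 21 members passed in MV4-11, all 14 among them, where 19.7% of all genes passed. IFIT2 and USP18 were also gained in that fit. The gene results below are from the fit without blocks unless blocks are named.

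**Figure D3:**
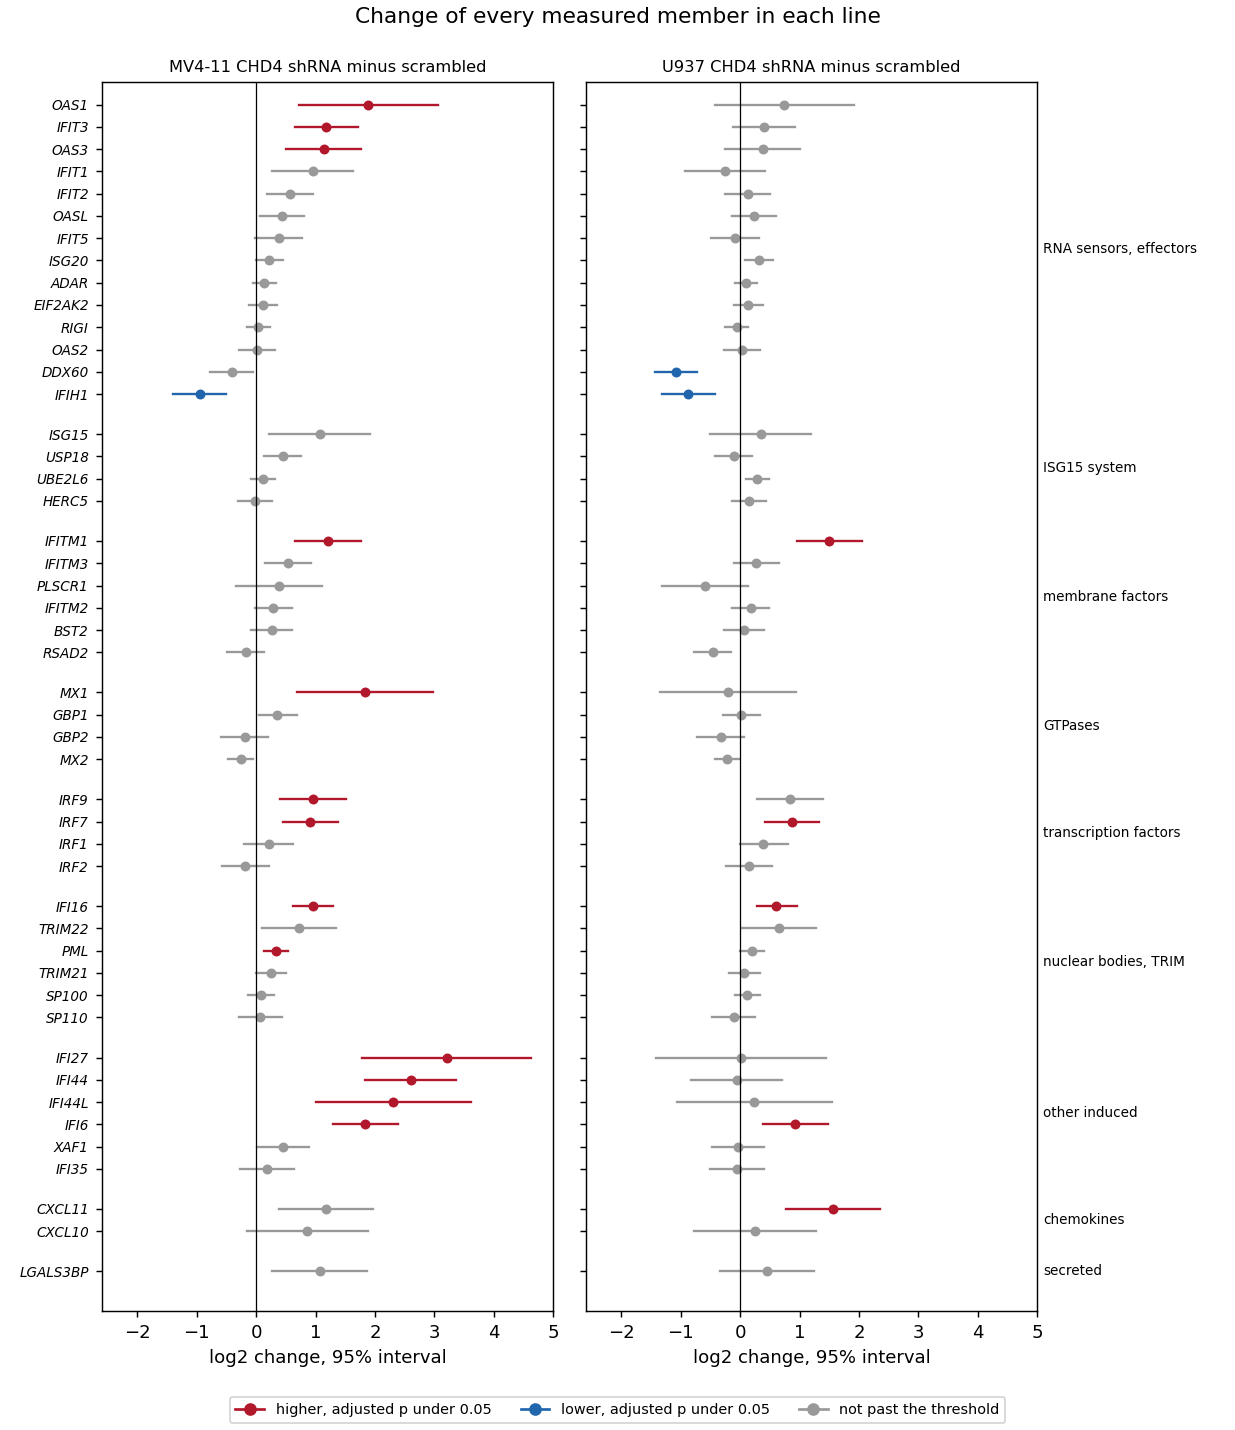
Log2 change of every measured member, CHD4 shRNA minus scrambled shRNA, in MV4-11 (left) and U937 (right), with 95% confidence intervals from the limma fit and the members grouped by role. The intervals use a spread pooled over all 4 groups. In MV4-11, 13 members (red) lie above 0 past the threshold and 1 (blue) below, and in U937 5 lie above and 2 below.

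The small interferon-induced proteins moved most in MV4-11. Of 6 measured, IFI27, IFI44, IFI44L and IFI6 rose, IFI35 and XAF1 did not pass, and the group's median was 2.08 log2 in MV4-11, 1.37 without replicate 2, and -0.01 in U937. In the MV4-11 scrambled cells IFI27, IFI44 and IFI44L averaged 5.28, 4.03 and 3.52, under 5.70, the mean level below which the dimmest 25% of genes lie. The files hold no detection calls, so a linear fold against such a level is not given. IFI27, a small membrane protein widely used as a marker of interferon exposure, had 7.52, 10.80 and 7.14 in MV4-11 CHD4 shRNA cells, against 5.32, 5.22 and 5.30 in MV4-11 scrambled cells. All 3 CHD4 shRNA arrays lay above all scrambled arrays and replicate 2 stood far above the other 2. The change was 3.21 log2 (SE 0.66, limma adjusted p = 0.0102), and 2.05 (SE 0.12) without replicate 2. In a fit of the MV4-11 arrays alone its SE was 0.85 and it did not pass (limma adjusted p = 0.0815). In U937, IFI27 had 5.25, 5.30 and 5.36 in CHD4 shRNA cells and 5.39, 5.23 and 5.26 in scrambled cells, overlapping groups with a change of 0.01 (95% interval -1.42 to 1.44), and -0.02 without replicate 3. The spread in the fit is pooled over all 4 groups, so this interval also carries that of the MV4-11 CHD4 shRNA arrays (SD 2.01). The SDs of the U937 groups were 0.06 and 0.09, and with the U937 arrays alone the SE of the change was 0.09.

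IFI44 and IFI44L, neighbouring genes whose products are cytoplasmic antiviral proteins, followed the same order of arrays. IFI44 had 6.08, 7.84 and 5.96 in MV4-11 CHD4 shRNA cells, against 4.10, 4.06 and 3.93 in MV4-11 scrambled cells. The change was 2.60 log2 (SE 0.35, limma adjusted p = 0.00128), and 1.99 (SE 0.10) without replicate 2. In U937 the IFI44 arrays overlapped, at 4.09, 4.15 and 4.24 with the CHD4 shRNA and 4.16, 4.28 and 4.20 with the scrambled shRNA. IFI44L had 4.86, 7.94 and 4.70 in MV4-11 CHD4 shRNA cells, against 3.51, 3.54 and 3.52 in MV4-11 scrambled cells, a change of 2.31 (SE 0.60, limma adjusted p = 0.0318) that was 1.26 (SE 0.14) without replicate 2. For both genes every MV4-11 CHD4 shRNA array lay above every scrambled array. A second IFI44 probe set did not pass in MV4-11 (0.25, SE 0.22), so the IFI44 rise rests on 1 of its 2 probe sets.

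IFI6, a mitochondrial and endoplasmic reticulum protein that delays cell death, was the one gene of this role that rose in both lines. It had 9.98, 11.09 and 10.02 in MV4-11 CHD4 shRNA cells, against 8.46, 8.47 and 8.63 in MV4-11 scrambled cells, a change of 1.84 (SE 0.25, 3.59-fold, limma adjusted p = 0.00129). In U937 it had 9.66, 10.08 and 10.32 with the CHD4 shRNA and 9.21, 9.17 and 8.90 with the scrambled shRNA, a change of 0.93 (SE 0.25, limma adjusted p = 0.046). The arrays were apart in both lines. XAF1, a protein that favours apoptosis, had a change of 0.45 in MV4-11 (limma adjusted p = 0.187), 0.16 without replicate 2, and -0.03 in U937.

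**Figure D4:**
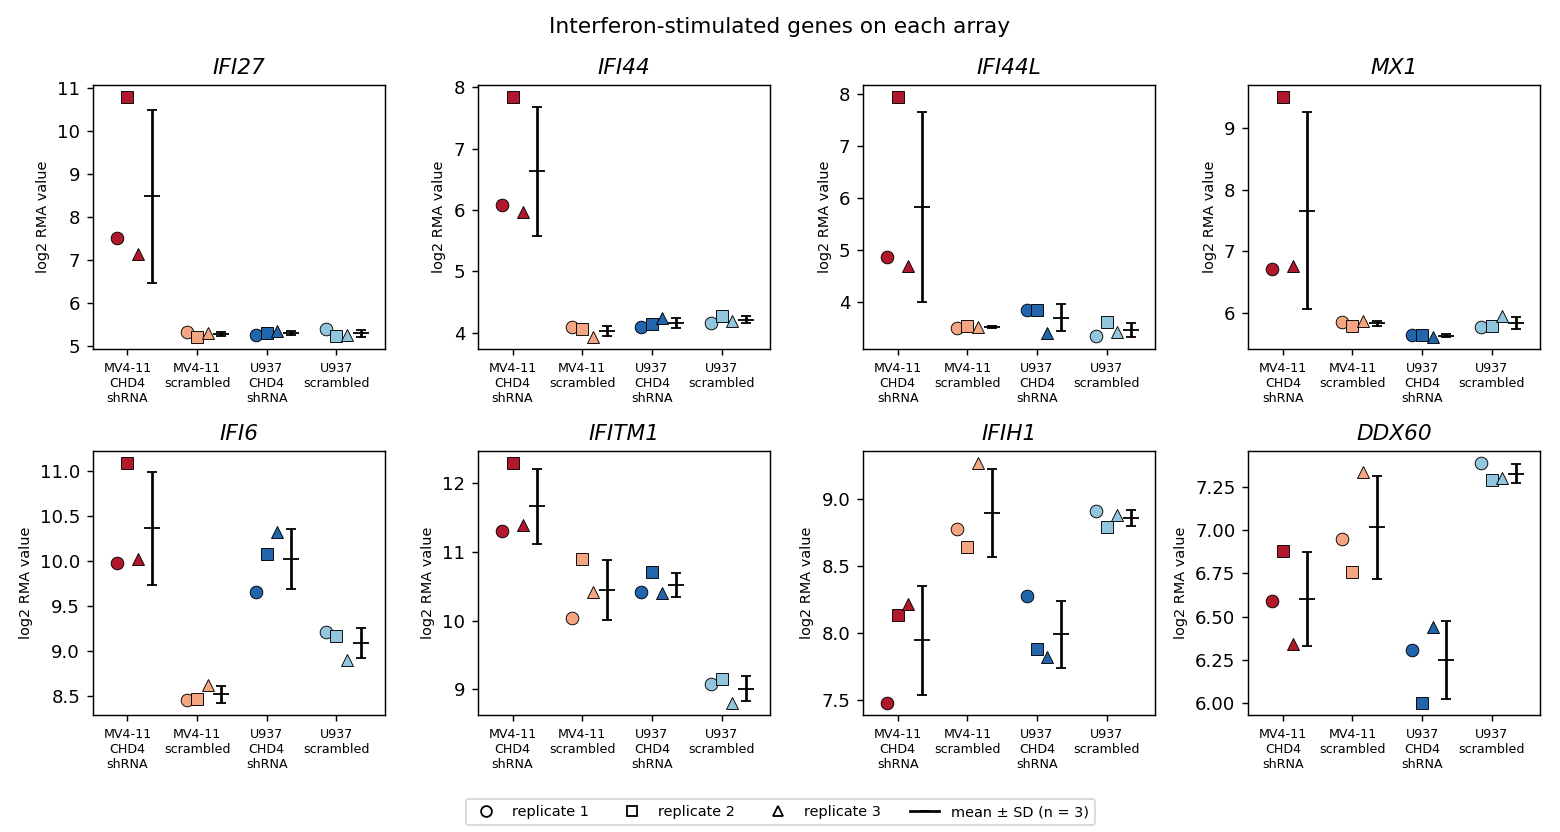
Log2 RMA values of 8 members on every array, with the CHD4 shRNA and scrambled arrays of MV4-11 on the left of each panel and those of U937 on the right (circle, square and triangle for replicates 1, 2 and 3, black bars for mean ± SD of 3 arrays; the y axes do not start at 0). IFI27, IFI44, IFI44L and MX1 are higher with the CHD4 shRNA in MV4-11, replicate 2 the highest, and did not pass the threshold in U937. IFI6 and IFITM1 are higher with the CHD4 shRNA in both lines, and IFIH1 is lower with it in both lines.

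Among the 14 RNA sensors and RNA-directed effectors, OAS1, OAS3 and IFIT3 rose in MV4-11 and IFIH1 fell, while in U937 IFIH1 and DDX60 fell and none rose. The OAS enzymes make oligoadenylates that activate RNase L. OAS1 had 7.03, 8.68 and 6.01 in MV4-11 CHD4 shRNA cells, against 5.33, 5.24 and 5.49 in MV4-11 scrambled cells (change 1.89, SE 0.54, limma adjusted p = 0.0457), and the scrambled mean of 5.35 is among the dim levels. In U937 OAS1 had 5.53, 6.17 and 7.37 with the CHD4 shRNA and 5.69, 5.69 and 5.47 with the scrambled shRNA, where only replicates 2 and 3 lay above the scrambled arrays and the change of 0.74 did not pass (limma adjusted p = 0.527) and was 0.23 without replicate 3. OAS3 had 8.26, 9.06 and 7.65 in MV4-11 CHD4 shRNA cells, against 7.5, 7.21 and 6.85 in MV4-11 scrambled cells (change 1.14, SE 0.29, limma adjusted p = 0.0289). IFIT3, which binds viral RNA together with IFIT1, had 7.64, 8.47 and 7.28 in MV4-11 CHD4 shRNA cells, against 6.65, 6.64 and 6.56 in MV4-11 scrambled cells (change 1.18, SE 0.24, limma adjusted p = 0.0104). In U937, OAS3 had a change of 0.38 and IFIT3 of 0.40, neither past the threshold, and for both genes replicate 3 was the highest CHD4 shRNA array, at 8.37 and 7.5, without which the changes were 0.16 and 0.21.

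The members of this group that fell encode helicases. IFIH1, the helicase MDA5 that senses long double-stranded RNA, had 7.48, 8.14 and 8.22 in MV4-11 CHD4 shRNA cells, against 8.78, 8.64 and 9.27 in MV4-11 scrambled cells (change -0.95, SE 0.20, limma adjusted p = 0.0126). In U937 it had 8.28, 7.88 and 7.82 with the CHD4 shRNA and 8.91, 8.79 and 8.88 with the scrambled shRNA (change -0.87, SE 0.20, limma adjusted p = 0.0241). No array of one group reached the other in MV4-11 or in U937. A second IFIH1 probe set had a change of 0.15 in MV4-11 and -0.08 in U937 and passed in neither, so both falls rest on 1 of 2 probe sets. DDX60, a helicase reported to aid RNA sensing, had 6.31, 6.0 and 6.44 in U937 CHD4 shRNA cells, against 7.39, 7.29 and 7.30 in U937 scrambled cells (change -1.08, SE 0.17, 2.11-fold, limma adjusted p = 0.00301). In MV4-11 DDX60 had 6.59, 6.88 and 6.34 with the CHD4 shRNA and 6.95, 6.76 and 7.34 with the scrambled shRNA, overlapping groups with a change of -0.41 (limma adjusted p = 0.143). RIGI, the sensor of uncapped RNA ends, had a change of 0.04 in MV4-11 and -0.06 in U937, with 95% intervals of -0.16 to 0.24 and -0.26 to 0.14.

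The other members of this group did not pass in either line. In MV4-11, the change was 0.95 for IFIT1 (limma adjusted p = 0.0763), 0.57 for IFIT2, 0.43 for OASL, 0.38 for IFIT5, 0.22 for the exonuclease gene ISG20, 0.14 for the RNA-editing enzyme gene ADAR, 0.12 for EIF2AK2, which encodes the kinase PKR, and 0.02 for OAS2. IFIT1 had 7.67, 9.06 and 7.71 in MV4-11 CHD4 shRNA cells, against 6.96, 7.02 and 7.61 in MV4-11 scrambled cells, groups that did not overlap. Without replicate 2 the MV4-11 change was 0.49 for IFIT1, 0.31 for IFIT2, 0.22 for OASL and 0.12 for IFIT5. In U937 the change was -0.25 for IFIT1, -0.44 without replicate 3, and the other 7 lay between -0.08 and 0.32.

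None of the 4 genes of the ISG15 system passed in either line in the limma fit without replicate blocks. In that fit 2 of the 4 had an unadjusted p under 0.05 in MV4-11, against 1 of the 4 in U937, where 24.5% and 19% of all genes did. With blocks, ISG15 passed in MV4-11 (limma adjusted p = 0.0471 in MV4-11 alone and 0.0372 with blocks in both lines). USP18 passed there only with blocks in both lines (limma adjusted p = 0.0488, against 0.0864 in MV4-11 alone). ISG15, the ubiquitin-like protein that is joined to other proteins, had 9.66, 11.03 and 9.12 in MV4-11 CHD4 shRNA cells, against 9.03, 8.96 and 8.61 in MV4-11 scrambled cells (change 1.07, SE 0.39, limma adjusted p = 0.108). It had 8.84, 8.89 and 9.91 in U937 CHD4 shRNA cells and 8.99, 8.67 and 8.92 in U937 scrambled cells (change 0.35). The high arrays, MV4-11 replicate 2 and U937 replicate 3, were those named above, and the changes were 0.52 and 0.00 without them. USP18, the protease that removes ISG15 and restrains the receptor, had the lowest p of the group in MV4-11 (change 0.45, SE 0.14, limma adjusted p = 0.0676), and 0.27 without replicate 2. The ligase HERC5 and the conjugating enzyme UBE2L6 had changes of -0.02 and 0.12 in MV4-11.

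Of the 6 membrane-acting antiviral proteins, IFITM1 rose in both lines and the others passed in neither. IFITM1, which hinders the fusion of viruses with the cell membrane, had 11.30, 12.29 and 11.39 in MV4-11 CHD4 shRNA cells, against 10.03, 10.90 and 10.42 in MV4-11 scrambled cells (change 1.21, SE 0.25, limma adjusted p = 0.0111). In U937 it had 10.42, 10.71 and 10.40 with the CHD4 shRNA and 9.08, 9.15 and 8.80 with the scrambled shRNA (change 1.5, SE 0.25, 2.83-fold, limma adjusted p = 0.00466). In each line all 3 CHD4 shRNA arrays lay above all 3 scrambled arrays. IFITM3 had a change of 0.54 in MV4-11 (limma adjusted p = 0.0773) and 0.27 in U937, and IFITM2 of 0.29 and 0.18. Without replicate 2 these MV4-11 changes were 0.30 and 0.15. IFITM2 and IFITM3 were read from probe sets of the type that can cross-hybridise with related genes, so these closely similar paralogs are uncertain. The probe sets used for IFI16, PML, GBP1 and SP110 are of the same type. In MV4-11 the virion tether BST2 had a change of 0.26, the scramblase PLSCR1 of 0.38 and RSAD2, the radical enzyme viperin, of -0.17 (0.10, -0.12 and -0.36 without replicate 2), while in U937 BST2 was at 0.07, RSAD2 at -0.46 (limma adjusted p = 0.0865) and PLSCR1 at -0.59.

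Among the 4 GTPases, MX1 rose in MV4-11 and none passed in U937, where 1 of the 4 had an unadjusted p under 0.05, against 19% of all genes. MX1 is a dynamin-like protein that traps viral nucleocapsids. It had 6.71, 9.51 and 6.76 in MV4-11 CHD4 shRNA cells, against 5.84, 5.78 and 5.86 in MV4-11 scrambled cells (change 1.83, SE 0.53, limma adjusted p = 0.0462), and without replicate 2 the change was 0.91 (SE 0.09). In U937 MX1 had 5.63, 5.64 and 5.60 with the CHD4 shRNA and 5.76, 5.78 and 5.94 with the scrambled shRNA. All 3 U937 arrays thus lay just below their scrambled arrays, with a change of -0.20 (95% interval -1.34 to 0.94). That interval also carries the spread of the MV4-11 arrays, and with the U937 arrays alone the SE was 0.09 (limma adjusted p = 0.238). The change of MX2 was -0.26 in MV4-11 and -0.22 in U937, that of GBP1 0.36 (0.18 without replicate 2) and 0.02, and that of GBP2 -0.19 and -0.33. A second GBP1 probe set passed in MV4-11 (0.44, SE 0.09, limma adjusted p = 0.00974 over all probe sets).

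Of the 4 measured transcription factors, IRF7 rose in both lines and IRF9 in MV4-11. IRF7, the factor that amplifies type I interferon genes, had 7.61, 8.10 and 7.26 in MV4-11 CHD4 shRNA cells, against 6.66, 6.92 and 6.66 in MV4-11 scrambled cells (change 0.91, SE 0.21, limma adjusted p = 0.0186). In U937 it had 7.10, 7.45 and 7.80 with the CHD4 shRNA and 6.44, 6.84 and 6.46 with the scrambled shRNA (change 0.87, SE 0.21, limma adjusted p = 0.0294). IRF9, the DNA-binding subunit of ISGF3, had 8.23, 9.0 and 7.97 in MV4-11 CHD4 shRNA cells, against 7.04, 7.76 and 7.53 in MV4-11 scrambled cells (change 0.96, SE 0.26, limma adjusted p = 0.0352). In U937 IRF9 had 7.74, 8.03 and 8.40 with the CHD4 shRNA and 7.25, 7.41 and 6.98 with the scrambled shRNA, groups that did not overlap, yet the change of 0.84 did not pass (limma adjusted p = 0.0753). The activator IRF1 and the repressor IRF2 passed in neither line, with changes of 0.21 and -0.18 in MV4-11 and 0.39 and 0.15 in U937.

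Of the 6 nuclear body and TRIM proteins, IFI16 rose in both lines and PML in MV4-11. IFI16, a sensor of nuclear and cytosolic DNA, had 10.95, 10.95 and 10.86 in MV4-11 CHD4 shRNA cells, against 9.84, 9.78 and 10.28 in MV4-11 scrambled cells (change 0.95, SE 0.16, limma adjusted p = 0.00342). Its 3 CHD4 shRNA arrays lay close together, with no excess on replicate 2. In U937 it had 11.10, 11.07 and 11.62 with the CHD4 shRNA and 10.71, 10.70 and 10.54 with the scrambled shRNA (change 0.61, SE 0.16, limma adjusted p = 0.0362). Its other 2 probe sets gave 0.97 and 0.93 in MV4-11, both past the threshold, and 0.60 and 0.49 in U937, neither past it. PML, the scaffold of the nuclear bodies, had 7.85, 7.72 and 7.71 in MV4-11 CHD4 shRNA cells, against 7.37, 7.52 and 7.39 in MV4-11 scrambled cells, a small change of 0.33 (SE 0.10, limma adjusted p = 0.0465). Its other 7 probe sets did not pass, and its call was lost in 10 of the 12 fits that left out 1 array. TRIM22 had a change of 0.72 in MV4-11, 0.36 without replicate 2, and 0.65 in U937, TRIM21 of 0.25 and 0.07, SP100 of 0.08 and 0.12, and SP110 of 0.07 and -0.11, none past the threshold. The other SP100 probe sets gave 0.58, 0.48, 0.41 and -0.33 in MV4-11. None of them passed, with a lowest limma adjusted p of 0.0504 over all probe sets, so the SP100 change in MV4-11 is uncertain.

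CXCL11, a chemokine that attracts T cells through CXCR3, rose in U937. It had 5.01, 4.84 and 6.0 in U937 CHD4 shRNA cells, against 3.58, 3.57 and 4.02 in U937 scrambled cells (change 1.56, SE 0.37, limma adjusted p = 0.0249), and its scrambled mean of 3.72 is again under the level of 5.70. In MV4-11 it had 4.68, 5.57 and 3.82 with the CHD4 shRNA and 3.56, 3.51 and 3.47 with the scrambled shRNA, groups that did not overlap, with a change of 1.18 (limma adjusted p = 0.0632) that was 0.74 without replicate 2. A second CXCL11 probe set gave 0.84 in MV4-11 (limma adjusted p = 0.0113 over all probe sets) and 0.51 in U937 (0.124), the opposite pattern of calls. CXCL10, which binds the same receptor, had 5.13, 6.77 and 4.76 in MV4-11 CHD4 shRNA cells, against 4.80, 4.56 and 4.71 in MV4-11 scrambled cells, and its change of 0.86 did not pass (limma adjusted p = 0.29) and was 0.25 without replicate 2. In U937 CXCL10 had a change of 0.25, which took the other sign without replicate 3 (-0.28). The secreted glycoprotein gene LGALS3BP had 6.86, 8.48 and 6.74 in MV4-11 CHD4 shRNA cells, against 5.83, 6.73 and 6.32 in MV4-11 scrambled cells (change 1.07, SE 0.37, limma adjusted p = 0.0877), and without replicate 2 the change was 0.51.

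Several members are neighbours in the genome, and their values often lay apart. In the RefSeq gene order of GRCh38.p14, 20 of the members fall into 8 groups with at most 2 other protein-coding genes between members. In MV4-11, 7 of these 20 members passed, in 5 of the groups. That is near the 14 of all 47 members, where 9.42% of all genes passed. IFI44L with IFI44 on chromosome 1 was the 1 group in which every member passed, and a second IFI44 probe set did not (0.25). On chromosome 21, MX1 had a change of 1.83 and its neighbour MX2 of -0.26. On chromosome 12 the changes were 1.89 and 1.14 for OAS1 and OAS3 and 0.02 for OAS2, which lies next to OAS3. A second OAS2 probe set gave 1.19 (SE 0.38), which did not pass (limma adjusted p = 0.0765 over all probe sets). On chromosome 10, IFIT2, IFIT3, IFIT1 and IFIT5 had changes of 0.57, 1.18, 0.95 and 0.38. On chromosome 11, IFITM2, IFITM1 and IFITM3 had changes of 0.29, 1.21 and 0.54 in MV4-11 and of 0.18, 1.5 and 0.27 in U937. The differences between neighbours were not tested.

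A few members passed in both lines. Of the 16 members past the threshold in either line, 14 passed in MV4-11, 7 in U937 and 5 in both, which is 35.7% of the MV4-11 calls and 71.4% of the U937 calls. Over all genes 477 (3.99%) passed in both lines, 42.3% of the MV4-11 calls and 62.7% of the U937 calls, so the members' overlap was near that of the array as a whole. IFITM1, IFI6, IFI16 and IRF7 rose in both and IFIH1 fell in both. In U937 the number of calls also rested on single arrays: without CHD4 shRNA replicate 3 only DDX60 (-1.17) and IFITM1 (1.55) passed, where 3.03% of all genes did against 6.36% with all arrays, and the median was 0.06. Without that array the change was 1.20 for CXCL11, 0.78 for IFI6, 0.69 for IRF7, 0.43 for IFI16 and -0.78 for IFIH1, with limma adjusted p between 0.0988 and 0.169. Leaving out scrambled replicate 1, 2 or 3 gave 2, 3 or 2 calls, where 2.74%, 3.48% and 3.29% of all genes passed, and leaving out CHD4 shRNA replicate 1 or 2 gave 7 or 3, where 5.6% and 2.56% passed.

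The difference between the lines was tested directly as the MV4-11 change minus the U937 change. No member passed in limma, and neither did any other gene (0% of 11963). At an unadjusted p under 0.05 there were 9 of the 47 members, against 546 of all genes (4.56%), and the fit with replicate blocks also called none. The median difference was 0.19 over the members, against -0.01 over all genes. The largest among the members were IFI27 with 3.20 (95% interval 1.18 to 5.21, limma adjusted p = 0.937), IFI44 with 2.65 (1.57 to 3.73, 0.539), IFI44L with 2.07 (0.22 to 3.92) and MX1 with 2.04 (0.42 to 3.65). For IFITM1, which rose in both lines, the difference was -0.29 (-1.06 to 0.48). Without MV4-11 CHD4 shRNA replicate 2, the array with the highest values, the SE of the IFI27 difference was 0.16, against 0.93 with all arrays, and IFI27 (2.04, limma adjusted p = 9.27e-05), IFI44 (2.04, 2.79e-05) and MX1 (1.11, 0.00468) passed, where 0.0334% of all genes were called higher. In each of the other 11 fits that left out 1 array no member passed.

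Between the scrambled controls 41 of the 47 members did not pass. There were 3 members higher in MV4-11 than in U937 and 3 lower, where 2.97% and 2.51% of all genes were, and the median difference was -0.03. IFITM1 was 1.44 log2 higher in MV4-11 (SE 0.25, limma adjusted p = 0.00503), with 10.03, 10.90 and 10.42 in MV4-11 scrambled cells and 9.08, 9.15 and 8.80 in U937 scrambled cells. GBP2 was 0.84 higher (limma adjusted p = 0.0173) and HERC5 0.53 higher (0.0375). USP18 had a difference, MV4-11 minus U937, of -0.94 (SE 0.14, limma adjusted p = 0.00189), IFI16 of -0.68 (0.0226) and MX2 of -0.39 (0.0344). The 4 members that rose in both lines did so from scrambled levels that differed in IFITM1 and IFI16 and did not pass in IFI6 and IRF7. Leaving out U937 scrambled replicate 1, 2 or 3 gave 3 calls each, where 2.65%, 2.72% and 4.47% of all genes passed, against 5.48% with all arrays. Leaving out MV4-11 scrambled replicate 1, 2 or 3 gave 6, 2 or 3 calls, where 6.31%, 2.83% and 2.84% of all genes passed. USP18 and IFITM1 passed in all of these fits.

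The interferon genes themselves gave no call. Of 20 ligand genes listed, 14 were measured, and none passed in either line by limma or had an unadjusted p under 0.05. All of these but IFNW1 averaged under the dim level of 5.70 in every group. At such levels the lack of a call does not show that a ligand gene was unchanged. IFNB1 had 4.98, 4.87 and 4.84 in MV4-11 CHD4 shRNA cells, against 4.90, 4.84 and 4.79 in MV4-11 scrambled cells, a change of 0.05 (95% interval -0.14 to 0.25). The lowest ligand p-values in MV4-11 were those of IFNA17, IFNA10 and IFNA16, each with a change of -0.12. Of the 8 measured receptor and kinase genes, JAK2 fell in MV4-11 (-0.49, limma adjusted p = 0.0456), where 4.69% of all genes fell. JAK1 rose in U937 (0.36, limma adjusted p = 0.0418), where 2.67% of all genes rose. In MV4-11 the change was 0.28 for JAK1 (0.0814) and 0.13 for TYK2. Of the 10 measured STAT and IRF genes outside the members, STAT5A fell in MV4-11 (-0.54, limma adjusted p = 0.0162), and STAT6 (0.28) and IRF8 (-0.25) did not pass. None passed in U937, where 2 of the 10 had an unadjusted p under 0.05, near the 19% of all genes that did.

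Among 17 measured sensors and adaptors outside the members, 2 rose (11.8%) and 1 fell (5.88%) in MV4-11, and 1 rose and 1 fell in U937 (5.88% each). Over all genes 4.73% rose and 4.69% fell in MV4-11, and 2.67% rose and 3.69% fell in U937. AIM2, a receptor for cytosolic DNA that builds an inflammasome and is itself interferon-inducible, had 6.92, 6.99 and 5.58 in MV4-11 CHD4 shRNA cells, against 4.36, 4.39 and 4.67 in MV4-11 scrambled cells. In U937 AIM2 had 6.22, 6.86 and 8.06 with the CHD4 shRNA and 5.06, 5.11 and 4.72 with the scrambled shRNA. The groups did not overlap, and the changes were 2.02 (SE 0.41, limma adjusted p = 0.0101) in MV4-11 and 2.08 (SE 0.41, 0.011) in U937. TBK1, the kinase that activates IRF3 and IRF7, rose in MV4-11 by 0.53 (limma adjusted p = 0.00778), and DDX41, a helicase linked to DNA sensing, fell in both lines by 0.42. Of 15 negative regulators, PIAS3 fell in both lines (-0.49 in each, limma adjusted p = 0.0263 in MV4-11 and 0.0329 in U937) and SOCS2 fell in U937 (-0.87, 0.0206). The falls were 6.67% of that list in MV4-11 and 13.3% in U937. PTPN1 and PIAS1, at 0.25 and 0.26 in MV4-11, did not pass. Of 37 other interferon-induced genes measured, SP140 (0.58), PARP12 (0.48) and TRIM14 (0.53) rose and NMI fell (-0.32) in MV4-11, and CASP4 fell (-0.64) in U937. These were 8.11% higher and 2.7% lower in MV4-11 and 2.7% lower in U937. The counts in these lists are small, and several of the shares lie near those of all genes.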

How the data were processed

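Total RNA was taken with Trizol and hybridised as biotinylated cRNA, per the labels' protocols. The authors deposited 1 table of log2 values, and RMA is the tool that the submitters' processing notes name for them. Its version, and whether the 12 arrays went through it together, is not given in the sources used. The deposited values run from 2.54 to 15.11 with array medians of 6.97 to 7.02, which shows the log2 scale. Such normalization hides a change shared by most genes, and background compresses the folds of dim genes. The number of arrays limits the precision, and no pair of arrays held identical values.

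Of 22277 probe sets, 62 controls, 1043 with several gene symbols and 2108 with none listed were not used. RefSeq held the Entrez identifiers of 19052 of the 19064 with 1 symbol. Of the 47 measured members, 32 had 1 probe set and 15 had more.

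One model of the 4 groups was fitted to all arrays with limma 3.58.1 in R 4.3.3 (lmFit, then eBayes with no trend, 8 residual and 4.66 prior degrees of freedom). Benjamini-Hochberg adjustment ran over all 11963 genes, with an adjusted p under 0.05 as the threshold. For second probe sets it ran over all probe sets. The fit was tested on simulated data in which each gene had the same spread in every group. Those data held no paired arrays and no array that stood apart, so the test does not cover these features. P-values measure the spread between these arrays.

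The members and lists were chosen with earlier results of these data known. By rule, array values are given for members past the threshold in either line, and each role group names its member with the lowest p in MV4-11, each other list its 3 lowest, and the comparisons between lines their 6 largest per direction past the threshold. Array values of IFIT1, ISG15, CXCL10 and LGALS3BP, and IFNB1, were added after they were seen.

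The titles number the replicates 1 to 3 in every group. In MV4-11, CHD4 shRNA and scrambled arrays of the same number deviated together from their group means (correlations over genes of 0.46, 0.48 and 0.49) and were taken as pairs. The U937 correlations were 0, 0.35 and 0.34, so its numbers were not. The main fit did not use the pairs, which entered only the fits with replicate blocks. Alternatives were leaving out the dimmest genes or each array, renewed quantile normalization, median centring, a trended and robust eBayes, averaged or separate probe sets, fits of only the arrays compared, replicate blocks and other thresholds.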

Additional observations from a re-analysis of the deposited data

Results flagged for a closer look

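MX1 was flagged because its CHD4 shRNA arrays lay on opposite sides of the scrambled arrays in the lines. All 3 MV4-11 CHD4 shRNA arrays lay above the MV4-11 scrambled arrays, as for 11.5% of all genes. All 3 U937 CHD4 shRNA arrays lay below the U937 scrambled arrays, as for 14.6% of all genes. The share of genes with both was not computed. The U937 change was small (-0.20) and did not pass, and its scrambled mean of 5.83 is near the dim level of 5.70. The MV4-11 change minus the U937 change was 2.04 log2, and this difference did not pass in limma (adjusted p = 0.937). Without MV4-11 CHD4 shRNA replicate 2 it was 1.11 (adjusted p = 0.00468).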

How the results depend on the processing

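No change past the threshold took the other direction under the alternatives that were run. Among members not past it, 24 refitted values took the other sign, CXCL10 in U937 moving most, to -0.28 without CHD4 shRNA replicate 3 against 0.25 with all arrays, and PLSCR1 in MV4-11 next, to -0.12 without CHD4 shRNA replicate 2 against 0.38. The 14 MV4-11 calls became 3 in a fit of the MV4-11 arrays alone (IFI6, IFI16 and IFI44, where 4.29% of all genes passed) and 3 at a threshold of 0.01 (3.14%). The 7 U937 calls became 2 at 0.01 (2.09%), and the 6 calls between the scrambled controls became 2 (2.23%). Leaving out 1 array at a time gave 6 to 24 calls in MV4-11, 2 to 9 in U937, 2 to 7 between the scrambled controls and 0 to 3 for the difference between lines, where 3 came without MV4-11 CHD4 shRNA replicate 2. CHD4 stayed past the threshold in these fits, at -2.08 to -1.85 in MV4-11 and -2.29 to -2.08 in U937. The fit with a replicate block in both lines gave 10 calls in U937, where 12.3% of all genes passed, with IRF1, IRF9 and TRIM22 gained, and 0 for the difference. With the dimmest 25% of genes left out, there were 12 MV4-11 calls (13.5% of the genes tested), and IFI44, IFI44L and CXCL11 were among the members not tested. With probe sets averaged per gene, CXCL11 and GBP1 passed in MV4-11 and IFIH1 and PML did not. The causes were not tested. Array signal over background limits the dim members most.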
